A study of Mus musculus with 4 samples.

Results

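Mitosis and spindle genes were followed from fetal to adult mouse liver cells by a list of 41 genes, chosen by name, that drive entry into mitosis, build the spindle, attach chromosomes to it and divide the cell. Of these, 40 had at least 1 probe under their name on the array, out of 30038 gene names in all. Prc1, a microtubule bundler of the central spindle, had no probe row under that name. The 40 genes were read by 64 probes, of which 58 were bright enough to be tested, and all 40 genes had at least 1 tested probe.

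The groups were hepatoblasts of embryonic day 13 (E13, n = 2) and hepatocytes of adult mice aged 8 weeks (n = 2), all from untreated C57BL/6NCr liver as far as the labels tell. Hepatoblasts are the fetal progenitors of hepatocytes and bile duct cells, and hepatocytes are the main parenchymal cells of the adult liver. Total RNA was hybridised to 4 one-colour Agilent arrays. How the cells were isolated, and from how many animals, is not given in the labels, so the p-values cover no more than the spread between these arrays, which may be technical.

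All 4 arrays lay on 1 slide with 1 scan time. The scanner software marked between 19299 and 23763 probes per array as well above background. Levels are given as the log2 signal minus the array's 75th percentile. Replicate arrays correlated at Pearson r = 0.991 (E13) and 0.989 (adult) over the 16422 genes tested, some of them at background in 1 group. Arrays of different groups correlated at 0.727 to 0.742, as a description across genes. Among the hepatic markers, Alb and Hnf4a were well above background on all 4 arrays. The fetal gene Gpc3 was detected on both E13 arrays and on neither adult array. Cyp2e1, a cytochrome of mature hepatocytes, was detected on both adult arrays and on neither E13 array. Detection separated the groups less cleanly in other markers. Afp, called higher in E13, and Cps1, called higher in adult, were detected on all 4 arrays. Dlk1, called higher in E13, was detected on 1 adult array too.

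As background, cells enter mitosis when CDK1 bound to cyclin A or B becomes active. The kinetochore then joins each chromosome to spindle microtubules, the spindle checkpoint holds back the anaphase-promoting complex (APC/C) until every chromosome is attached, and cytokinesis splits the cell. Most of these genes are transcribed in the G2 and M phases and are repressed in resting cells, largely through DREAM and MuvB complexes at a promoter element called the cell cycle homology region, next to CCAAT boxes bound by NF-Y. Fetal liver cells divide rapidly, whereas most adult hepatocytes rest, many of them polyploid.

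The signal of nearly all the mitosis and spindle genes was higher in E13 hepatoblasts. Of the 40 genes, 37 were called higher in E13 hepatoblasts (limma, Benjamini-Hochberg adjusted p under 0.05 over all 16422 genes tested), against 32.8% of all genes (64.8% were called in either direction). All 37 were also at least 2-fold higher in the fit, and 23.7% of all genes were called and at least 2-fold higher in E13. Pttg1, the securin gene, was called higher in adult hepatocytes, as were 32.1% of all genes, and Bub1 and Anln were called in neither direction. The median log2 difference, adult minus E13, was -6.09 over the 40 genes and -0.01 over all genes tested. Both E13 arrays lay above both adult arrays for 38 of the 40 genes, against 43.1% of all genes. In bulk RNA, fewer dividing cells and less of an mRNA per cell cannot be told apart.

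Many of these genes had no measurable adult level. All 40 were well above background on both E13 arrays, but only 18 and 14 were so on adult arrays 1 and 2. For the 22 genes detected on neither adult array the difference is a lower limit, written "at least N-fold", taken against the lowest signal well above background on each adult array, or against the gene's own signal where that was higher. These limits ran from 4.69-fold (Kif15) to 90.6-fold (Cenpe), with a median of 31.7-fold. With such genes at their limits the median log2 difference of the 40 genes was -5.03, and that of all genes was 0. Another 12 of the genes higher in E13 were detected on all 4 arrays, and they differed by 11.4-fold (Cenpa) to 212-fold (Mki67), with a median of 67.7-fold. The remaining 3, Foxm1, Mad2l1 and Kif18a, were detected on 1 adult array.

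The size of the difference, more than its direction, followed the processing. With the background modelled by normexp the median log2 difference was -3.62, with 38 genes called higher in E13, against 27.4% of all genes. Scaled to the 8 spike-in probes instead of the 75th percentile, the median of all genes itself moved to -1.25, the calls over all genes moved from 5380 higher in E13 and 5267 higher in adult to 11292 and 2005, and the median of the mitosis genes was -7.33.

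**Figure D1:**
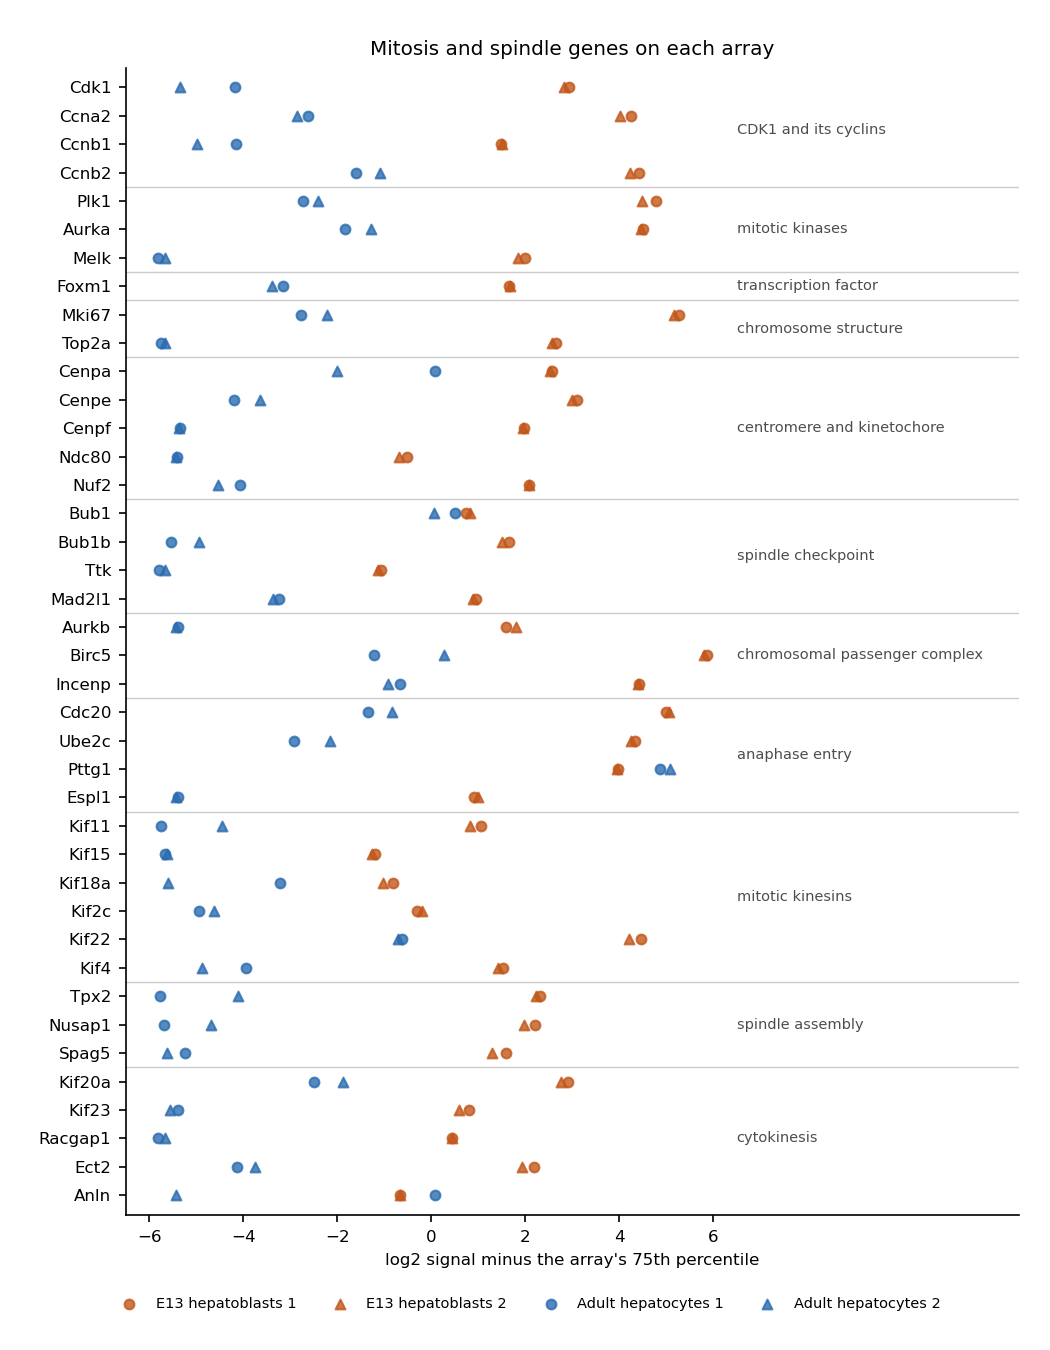
Log2 signal minus the array's 75th percentile (x axis) of the 40 mitosis and spindle genes on each of the 4 arrays, ordered by role; circles are replicate 1 and triangles replicate 2. Both E13 points lie to the right of both adult points for 38 genes, with Pttg1 reversed and Anln overlapping; levels of different genes come from different probes and are not to be compared.

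The replicates were closer in E13 hepatoblasts than in adult hepatocytes. The difference between replicate arrays had a median size of 0.10 and a maximum of 0.30 on the log2 scale over the 40 genes in E13, and a median of 0.42 and a maximum of 5.52, that of Anln, in adult. Over the 14 genes detected on all 4 arrays these medians were 0.08 in E13 and 0.51 in adult. In 8 genes the adult arrays differed by more than 1, and in none did the E13 arrays. Of these 8, 4 were detected on neither adult array, 2 on 1 and 2 on both. The median level of the genes was 2.03 and 1.93 on the E13 arrays and -4.11 and -4.51 on the adult arrays.

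Since the genes moved together, their promoters were read from RefSeq (GRCm38.p6), 250 bases before to 50 after the start, 1 window per gene. Windows were found for 35 of the 41 genes; Ccna2, Foxm1, Aurkb, Incenp, Tpx2 and Kif20a had no entry in the table used. The core of the homology region, TTTGAA on either strand, was present in 25 of the 35 windows (71.43%), against 18.11% of the 27025 windows of all genes. A CCAAT box on either strand was present in 24 windows (68.57%), against 37.92%. At least 2 CCAAT boxes were present in 16 (45.71%), against 12.16%, and TTTGAA together with at least 2 CCAAT boxes in 14 (40.0%), against 2.187%. No test was made of these shares.

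The following 6 windows are the first in list order of the 14 that hold TTTGAA and at least 2 CCAAT boxes. They are shown because they place both elements in genes of different mitotic roles. The sequences run 5′ to 3′ along the gene, and capitals mark TTTGAA and CCAAT or their reverse complements, TTCAAA and ATTGG. All 6 genes lie on the minus strand: Mki67 at chr7:135716330-135716629, Top2a at chr11:99024140-99024439, Ccnb2 at chr9:70421505-70421804, Cdk1 at chr10:69352863-69353162, Cdc20 at chr4:118437294-118437593 and Aurka at chr2:172370521-172370820.
Mki67: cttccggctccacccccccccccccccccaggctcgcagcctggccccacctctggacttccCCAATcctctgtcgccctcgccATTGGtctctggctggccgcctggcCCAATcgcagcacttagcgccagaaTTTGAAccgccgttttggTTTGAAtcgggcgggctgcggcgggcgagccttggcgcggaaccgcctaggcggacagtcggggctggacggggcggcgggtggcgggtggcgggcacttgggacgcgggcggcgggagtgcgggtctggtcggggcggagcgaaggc
Top2a: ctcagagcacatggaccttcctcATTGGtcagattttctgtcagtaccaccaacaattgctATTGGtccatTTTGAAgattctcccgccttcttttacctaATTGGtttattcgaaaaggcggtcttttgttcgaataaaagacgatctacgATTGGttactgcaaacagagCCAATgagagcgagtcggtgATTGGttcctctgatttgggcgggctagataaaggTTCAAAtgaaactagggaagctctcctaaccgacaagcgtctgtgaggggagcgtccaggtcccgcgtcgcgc
Ccnb2: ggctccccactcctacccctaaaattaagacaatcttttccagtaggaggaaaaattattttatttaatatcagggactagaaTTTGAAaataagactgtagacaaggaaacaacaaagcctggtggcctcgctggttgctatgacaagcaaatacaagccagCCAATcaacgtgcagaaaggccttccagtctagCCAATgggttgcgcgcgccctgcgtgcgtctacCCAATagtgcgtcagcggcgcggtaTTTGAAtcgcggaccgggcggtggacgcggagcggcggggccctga
Cdk1: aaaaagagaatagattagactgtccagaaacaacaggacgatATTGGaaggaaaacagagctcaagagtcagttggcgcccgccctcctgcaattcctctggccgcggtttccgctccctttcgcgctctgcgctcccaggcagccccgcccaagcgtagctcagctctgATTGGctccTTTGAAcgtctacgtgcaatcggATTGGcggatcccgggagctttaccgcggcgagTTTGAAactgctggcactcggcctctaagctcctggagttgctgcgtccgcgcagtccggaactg
Cdc20: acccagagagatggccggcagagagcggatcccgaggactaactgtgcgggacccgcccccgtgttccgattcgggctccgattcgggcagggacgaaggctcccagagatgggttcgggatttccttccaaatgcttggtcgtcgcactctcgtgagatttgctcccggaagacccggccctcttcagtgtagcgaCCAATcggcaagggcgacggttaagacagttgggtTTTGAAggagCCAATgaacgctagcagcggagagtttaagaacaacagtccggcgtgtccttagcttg
Aurka: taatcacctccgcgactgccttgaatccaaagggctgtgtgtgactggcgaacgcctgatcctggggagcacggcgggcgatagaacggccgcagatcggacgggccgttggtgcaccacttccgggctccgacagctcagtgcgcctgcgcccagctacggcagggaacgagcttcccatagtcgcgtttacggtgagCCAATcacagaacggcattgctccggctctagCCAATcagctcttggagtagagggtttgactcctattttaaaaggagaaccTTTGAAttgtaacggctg

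In most of these windows a match to TTTGAA lay downstream of all the CCAAT boxes, and in most a match lay within 50 bases of the start. Other matches lay farther upstream. In Cdk1, TTTGAA lay at -71 and -15 relative to the start, with CCAAT boxes at -208, -80 and -48. In Ccnb2 it lay at -167 and 5, with CCAAT boxes at -87, -54 and -21. In Top2a it lay at -179 and -23, among 6 CCAAT boxes between -227 and -58. Mki67 differed in that both of its matches, at -116 and -98, were far upstream, still downstream of CCAAT boxes at -188, -166 and -141. Aurka had its match after the start, at 33, with CCAAT boxes at -51 and -19, and Cdc20 had its match, at -18, between CCAAT boxes at -53 and -8.

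Over the 35 windows there were 33 matches to TTTGAA, at a median position of -15 (quartiles -71 and 17). Of these, 24 (72.73%) lay within 50 bases of the start, against 24.75% of the 5632 matches over all genes, whose median position was -125. Related forms of the element were rarer in the windows: TTTAAA was in 9 (25.71%, against 13.16% of all) and TTCGAA in 3 (8.571%, against 1.573%). A TATAAA box was in 1 window, that of Kif2c (2.857%, against 14.16%). The E2F motifs TTTGGCGC, TTTCGCGC, TTTCCCGC or GGCGGGAA, on either strand, were in 3 windows, those of Cdk1, Kif15 and Kif18a (8.571%, against 3.574%).

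The same motifs were read in DNA replication genes, which are transcribed earlier in the cycle. Of their 27 windows, 15 (55.56%) held an E2F motif and 4 (14.81%) held TTTGAA. The share with a CCAAT box, 19 windows (70.37%), was close to that of the mitosis genes. In other spindle and cytokinesis genes TTTGAA was in 15 of 24 windows (62.5%), and in other kinetochore and centromere genes in 10 of 28 (35.71%). Among the mitosis genes themselves the median fitted log2 difference was -6.09 over the 24 measured genes with TTTGAA and -6.19 over the 10 without. Many of these values are at background in adult, and the difference between the medians was not tested. The windows without it included Pttg1 and Bub1, but also Melk, Nusap1, Cenpe, Birc5, Ccnb1, Nuf2, Mad2l1 and Kif18a. A match is a description of the letters, and the binding of a factor was not measured.

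**Figure D2:**
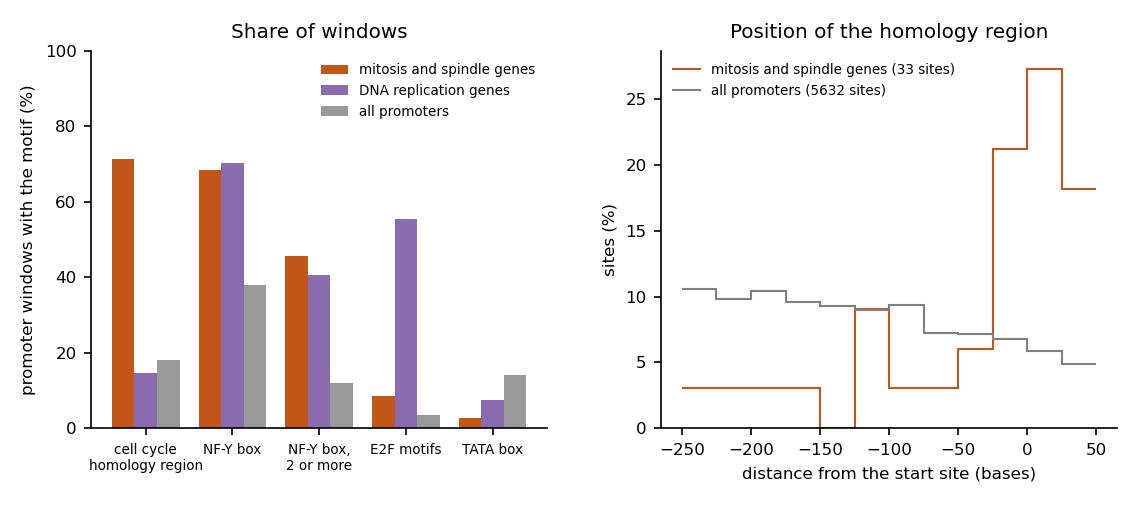
Left, share of promoter windows (%) that hold each motif in the mitosis and spindle genes (35 windows), DNA replication genes (27) and all genes (27025). Right, share of TTTGAA matches (%) by distance from the start site in bins of 25 bases; 72.73% of the 33 matches in mitosis and spindle genes lie within 50 bases of the start, against 24.75% over all genes.

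CDK1 and its cyclins, the engine of mitotic entry, were all 4 called higher in E13. Cdk1 was at 2.94 and 2.82 on the E13 arrays and -4.18 and -5.36 on the adult arrays. Both adult values were at background, so the difference is given as at least 80.8-fold (limma adjusted p = 0.00026). Ccna2, encoding the cyclin A that acts from S phase to early mitosis, was at 4.26 and 4.02 in E13 and -2.62 and -2.86 in adult, detected on all 4 arrays and 117-fold higher in E13 (log2 difference -6.88 ± 0.18 SE, adjusted p = 6.01e-05). Ccnb2 was at 4.42 and 4.24 against -1.60 and -1.09, 51-fold higher in E13. Ccnb1, the main mitotic cyclin B, was at least 30.8-fold higher. For none of the 4 did the groups overlap, and they did not for 85.8% of all genes tested.

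The mitotic kinases followed the same direction. Plk1, which acts at centrosomes, kinetochores and the midbody, was at 4.77 and 4.48 in E13 and -2.73 and -2.41 in adult, 147-fold higher in E13 (adjusted p = 6.84e-05). Aurka, the kinase of the spindle poles, was at 4.51 and 4.46 against -1.83 and -1.27, a 65.7-fold difference. Melk, a kinase of dividing cells, was at least 41.4-fold higher. Foxm1, the forkhead factor that activates many G2 and M phase genes, was at 1.65 and 1.67 in E13 and -3.15 and -3.39 in adult, a 30.5-fold difference with 1 adult array above background (-4.93 ± 0.16 SE, adjusted p = 8.43e-05).

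The 2 genes of chromosome structure were both called higher in E13. Mki67, which coats mitotic chromosomes and is the usual marker of cycling cells, was at 5.27 and 5.17 in E13 and -2.78 and -2.23 in adult (log2 difference -7.73 ± 0.23 SE, 212-fold, adjusted p = 7.92e-05). Its adult signal, although low, was above background on both arrays. Top2a, the topoisomerase that untangles sister chromatids, was at 2.66 and 2.57 against -5.75 and -5.67. Both adult values were at background, so the difference is given as at least 67.2-fold.

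All 5 centromere and kinetochore genes were called higher in E13. Cenpe, the kinetochore motor that moves chromosomes to the spindle equator, was at 3.09 and 3.0 in E13 and -4.20 and -3.66 in adult, at least 90.6-fold. Nuf2 and Ndc80 encode partners in the complex that grips microtubules, and were at least 46.5-fold and at least 7.22-fold higher. Cenpf, a large protein of the outer kinetochore, was at least 42.8-fold higher. Cenpa, the histone variant that marks centromeres, was at 2.57 and 2.52 in E13 but at 0.08 and -2.02 on the adult arrays. It was the only one of the 5 detected on all 4 arrays. Its difference, 11.4-fold with an SE of 0.71 on the log2 scale, had an adjusted p of 0.0116, and of 0.0503 without E13 replicate 1.

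Of the 4 spindle checkpoint genes, 3 were called. Bub1b, which encodes BUBR1, a part of the inhibitor of the APC/C, was at 1.65 and 1.50 in E13 and -5.53 and -4.95 in adult, at least 32.6-fold. Ttk, the checkpoint kinase MPS1, was at least 5.10-fold higher, with E13 levels of -1.08 and -1.13. Mad2l1, which encodes the checkpoint protein MAD2, was at 0.96 and 0.88 against -3.25 and -3.37, an 18.8-fold difference with 1 adult array above background. Bub1 is taken up with the probes below.

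The chromosomal passenger complex corrects faulty attachments and later acts at the cleavage site, and its 3 listed genes were all called higher in E13. Birc5, encoding survivin, was at 5.87 and 5.81 in E13 and -1.21 and 0.27 in adult, 79.5-fold higher (-6.31 ± 0.51 SE, adjusted p = 0.000739). The adult arrays differed from each other by more than the E13 arrays did, and the gap between groups was larger than both. Incenp, the scaffold, was at 4.42 and 4.39 against -0.66 and -0.93, a 36.8-fold difference with all arrays above background. Aurkb, the kinase of the complex, was at least 35.5-fold higher.

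The genes of anaphase entry divided. Cdc20, the activator that directs the APC/C to securin and cyclin B, was at 5.01 and 5.06 in E13 and -1.35 and -0.83 in adult, 69.8-fold higher in E13 (adjusted p = 0.000102). Ube2c, the ubiquitin-conjugating enzyme of the APC/C, was at 4.34 and 4.25 against -2.93 and -2.16, 115-fold. Espl1, the separase that cuts cohesin, was at least 21.2-fold higher. Pttg1, which encodes the securin that holds separase in check, went the other way, at 3.97 and 3.94 in E13 and 4.87 and 5.07 in adult. It was 2.01-fold higher in adult hepatocytes (1.01 ± 0.15 SE, adjusted p = 0.00494). The groups did not overlap, as was so for 85.8% of all genes tested.

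Pttg1 had 1 probe, at chr11:43233801-43233860 on the minus strand (mm9), so no second probe bears on its value. Under the scaling to spike-in probes its log2 difference was -0.23 (adjusted p = 0.336) and the call was lost. The summed signal of the 40 genes, relative to the 75th percentile, was 394 and 368 in E13 and 37.2 and 40.7 in adult, and without Pttg1 it was 378 and 352 in E13 and 8.03 and 7.08 in adult.

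All 6 mitotic kinesins were called higher in E13. Kif22, which pushes chromosome arms outward, was at 4.46 and 4.21 in E13 and -0.63 and -0.71 in adult, a 32.1-fold difference and the only one of the 6 detected on all arrays. Kif11, the motor that separates the spindle poles, was at least 21.1-fold higher, and Kif4, a chromosome-bound motor that also shortens the central spindle, at least 30.5-fold. Kif2c, which takes microtubule ends apart, and Kif15, which helps Kif11 at the poles, were at least 9.15-fold and at least 4.69-fold higher. Kif18a, which dampens chromosome oscillation, was at -0.82 and -1.03 in E13 and -3.22 and -5.61 in adult, with only adult array 1 above background. The lowest signal well above background on adult array 2 was -3.41. The fitted difference, which includes the background value, was 11.3-fold with an SE of 0.81 on the log2 scale (limma adjusted p = 0.0177). The call ended without E13 replicate 1 (adjusted p = 0.0715) or without E13 replicate 2 (adjusted p = 0.063).

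The spindle assembly genes were at background in adult hepatocytes. Tpx2, which activates Aurora A and nucleates microtubules near chromosomes, was at 2.32 and 2.23 in E13 and -5.77 and -4.13 in adult, at least 53.2-fold. Nusap1, a microtubule bundler, was at least 46.7-fold higher, and Spag5, which encodes astrin of the spindle and kinetochore, at least 29.6-fold. All 3 measured genes were detected on both E13 arrays and on neither adult array.

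Of the 5 cytokinesis genes, 4 were called higher in E13. Kif20a, the motor that brings the passenger complex to the central spindle, was at 2.90 and 2.77 in E13 and -2.50 and -1.88 in adult, 32.6-fold higher with all arrays above background. Kif23 and Racgap1 form the centralspindlin complex and were at least 17.8-fold and at least 14.9-fold higher. Ect2, which centralspindlin recruits to activate RhoA, was at least 45.5-fold higher. Anln, the scaffold of the contractile ring, was at -0.66 and -0.66 in E13 and at 0.08 and -5.44 on the adult arrays, so that the groups overlapped (-2.02 ± 1.84 SE, adjusted p = 0.373).

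The genes that were not called had probes that did not match each other. The brightest tested probe stood for each gene, and 16 of the 40 genes had several tested probes. In 14 of the 16 all tested probes were called higher in E13, and Bub1 and Anln were the other 2. Of the 58 tested probes, 55 were called higher in E13, 1 higher in adult and 2 neither. Over all genes 32.8% were called higher in E13. All 58 probes were well above background on both E13 arrays, but only 19 and 15 were so on adult arrays 1 and 2. Most thus passed the filter through E13 alone, the group where they were high. The counts of probes called are therefore no separate support. The 6 untested probes, in 6 genes, were not well above background on both arrays of either group.

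Bub1, the kinase that recruits other checkpoint proteins to the kinetochore, was read by its brightest probe at 0.75 and 0.83 in E13 and 0.51 and 0.07 in adult (-0.50 ± 0.20 SE, adjusted p = 0.0873). Its other probe was at 1.56 and 1.57 in E13 and -5.62 and -5.58 in adult (-7.16 ± 0.14 SE over all probes tested). The first was above background on all arrays and the second on the E13 arrays only. The probes lie at chr2:127626326-127626385 and chr2:127626988-127627047 on the minus strand (mm9), 602 bases apart, and carry different RefSeq accessions of the same gene. With the mean of both probes Bub1 was called higher in E13 (adjusted p = 0.000105), and it was called too with normexp (adjusted p = 0.0359) and without adult replicate 1 (adjusted p = 0.0282).

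The Anln probe used spans an exon junction within chr9:22138566-22142382 (minus strand, mm9), as its interval of 3817 bases for 60 bases of probe shows. It was well above background on adult array 1 and not on adult array 2. The other probe, at chr9:22177635-22177694, was at -1.33 and -1.62 in E13 and -5.52 and -5.61 in adult (-4.09 ± 0.17 SE). Without adult replicate 2 the used probe gave a log2 difference of 0.74 (adjusted p = 0.0258), and without adult replicate 1 one of -4.78 (adjusted p = 0.00101). The value of Anln therefore rested on which adult array and which probe was read.

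Probes of 1 gene also differed in size where they shared a direction. Over the 16 genes the range of log2 difference between probes had a median of 1.69, from 0.01 in Kif23 to 6.66 in Bub1, and it was over 2 in 7 genes. The probes of Cenpf gave -7.33 and -1.66, and those of Spag5 gave -6.86 and -2.47. In both genes the probe with the smaller difference was the dimmer in E13, at -3.95 and -4.18 for Cenpf and -3.57 and -2.96 for Spag5, and both probes of each were at background in adult.

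**Figure D3:**
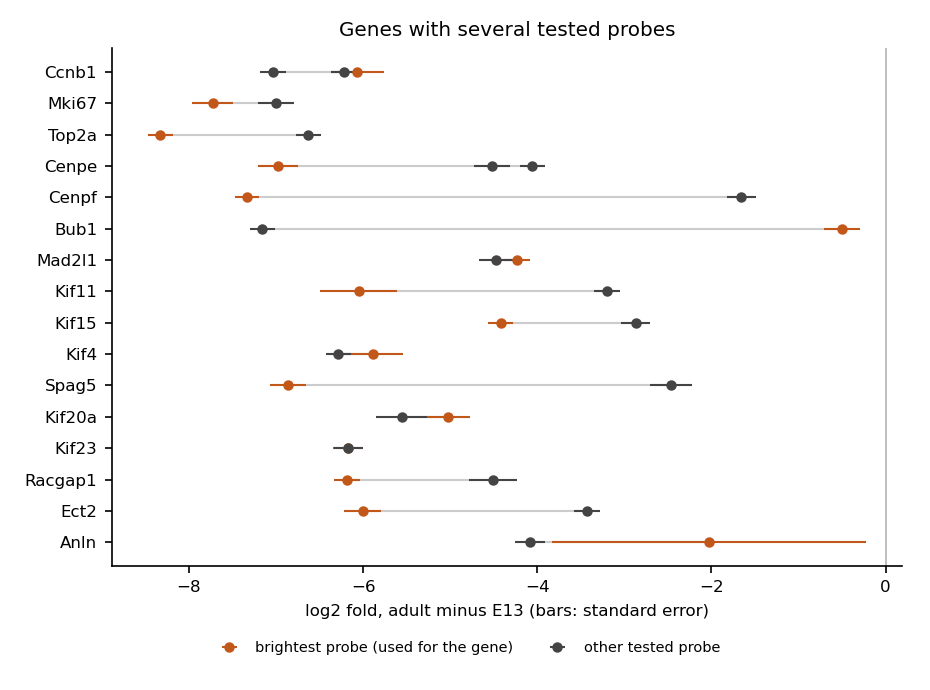
Log2 difference, adult minus E13 (x axis, bars are the standard error), of each tested probe in the 16 genes with several; orange marks the brightest probe, used for the gene. All lie to the left of 0, and the probes of Bub1, Cenpf and Spag5 are the farthest apart.

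Other genes of cell division, in lists written from general knowledge, were higher in E13 by varying amounts. In other spindle and cytokinesis genes 29 of 31 tested were called higher in E13 and 0 higher in adult, with a median log2 difference of -4.83. As 20 of the 31 were at background in adult, the median was -3.15 with such genes at their limits and -1.88 with normexp. Over the 10 genes detected on all arrays it was -1.69. Of these 10, 8 were called higher in E13, against 28.9% of all genes so detected. The mitotic kinase Pbk was at least 41.1-fold higher, Iqgap3 at least 23.1-fold and Shcbp1 at least 64.9-fold, while Numa1, which tethers microtubules at the poles and also lies in the interphase nucleus, was at 3.99 and 4.11 against 3.67 and 3.86 and was not called. In other kinetochore and centromere genes 26 of 30 tested were called higher in E13 and 1 in adult (median -3.45, -1.94 with normexp and -1.35 over the 17 detected on all arrays). Ska1, Kntc1 and Casc5, which act at the outer kinetochore, were at least 31.1-fold, at least 29.4-fold and at least 18.9-fold higher. Cenpb, which binds centromeric repeats, was 1.74-fold higher in adult (adjusted p = 0.0229), a call that ended without E13 replicate 1 or without either adult replicate (adjusted p of 0.0577 to 0.102) and turned under spike-in scaling (-0.43).

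Cohesin, condensin and the APC/C, which also work outside mitosis, were mostly detected in adult hepatocytes too. Of 18 cohesin and condensin genes 15 were called higher in E13 and 1 in adult (median -1.82, -1.67 with normexp and -1.57 over the 15 detected on all arrays). Set beside the other kinetochore and spindle genes, these medians are smaller in the main setting and close to theirs in the other 2 settings. Within them Ncapg of condensin was at least 64.0-fold higher and Cdca5, the cohesin protector sororin, was 81.7-fold higher. Wapal, which releases cohesin, was 1.84-fold higher in adult (adjusted p = 0.00945; 0.0595 without E13 replicate 2, and a log2 difference of -0.36 under spike-in scaling). Of 15 APC/C subunits and regulators 12 were called higher in E13 and 1 in adult (median -1.06), and all 15 were detected on all arrays. Over all genes 32.8% were called higher in E13. At a limma adjusted p under 0.01, 6 of the 15 were called higher in E13, against 3778 of all 16422 genes. The APC/C inhibitor Fbxo5 was 47.2-fold higher and the subunit Cdc23 4.55-fold. The subunit Anapc13 was called higher in adult by 1.39-fold (adjusted p = 0.0368), a call lost when any 1 array was left out (adjusted p of 0.0642 to 0.157) or with the replicate number as a block (adjusted p = 0.112), and turned under quantile normalization (-0.18) and spike-in scaling (-0.77).

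Most upstream regulators were called higher in E13 and few higher in adult, against 32.8% and 32.1% of all genes. Of 12 genes of entry into mitosis 10 were called higher in E13 and 0 in adult (median -2.89, -1.75 with normexp and -1.49 over the 6 detected on all arrays). Among them the CDK1 inhibitor kinase Pkmyt1 was 75.3-fold higher, with 1 adult array above background. Of 18 E2F, DREAM and MuvB factors 13 were called higher in E13 and 2 in adult (median -1.30). Under spike-in scaling the counts were 16 and 1, with 68.8% of all genes called higher in E13. Mybl2, which joins MuvB to activate mitotic genes, was at 1.67 and 1.88 in E13 and -2.38 and -2.67 in adult, 19.7-fold higher, and E2f7 was at least 8.50-fold higher. The pocket protein Rbl1 was at least 17.2-fold higher in E13, whereas Rbl2, the p130 of the repressive DREAM complex, was at -3.04 and -3.05 in E13 and -0.39 and -0.12 in adult, 6.90-fold higher in adult (2.79 ± 0.16 SE, adjusted p = 0.000316).

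Genes of the earlier cycle phases were set beside them. Of 34 DNA replication genes 32 were called higher in E13 and 1 in adult (median -3.30). Uhrf1, which maintains DNA methylation, was at least 160-fold higher in E13, Ccne1 was 51.7-fold higher, and Mcm10 was 4.93-fold higher in adult. Of 14 tested G1 cyclins, CDKs and CDK inhibitors 8 were called higher in E13 and 3 in adult (median -1.23). Under spike-in scaling the counts were 10 and 1, in a setting where 68.8% of all genes were called higher in E13. Ccnd1 was 33.4-fold higher in E13, and Ccng1, a p53 target, was 5.83-fold higher in adult. The CDK inhibitor Cdkn1c was at 7.16 and 7.09 in E13 and -1.45 and -0.82 in adult, 306-fold higher in E13, while Cdkn1b was not called (-0.30 ± 0.14 SE).

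**Figure D4:**
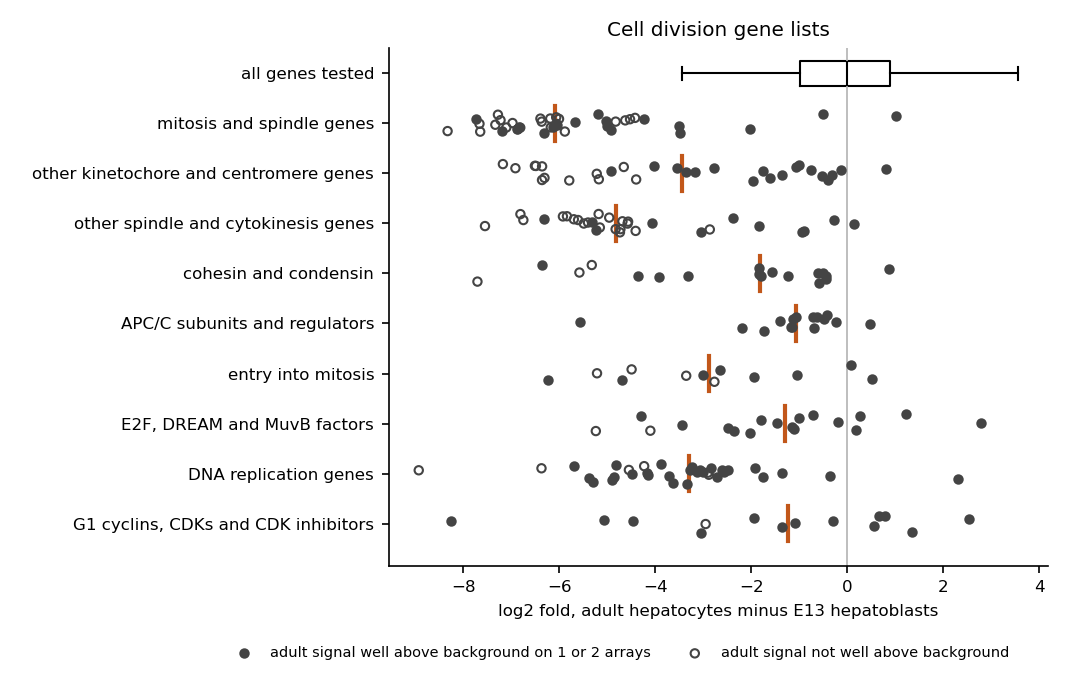
Log2 difference, adult minus E13 (x axis), of each tested gene in the mitosis and spindle list and in 8 other cell division lists. Open circles are genes at background on both adult arrays, and orange bars are medians. The box gives the median and quartiles of all genes tested. Its whiskers stop short of the lowest and highest values. The median of fitted values is -6.09 in the mitosis and spindle genes, -4.83 in other spindle and cytokinesis genes and -1.06 in APC/C subunits and regulators.

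Fetal liver is also a blood-forming organ, so markers of other cells were read on the same arrays. The summed signal of 14 erythroid markers, relative to the 75th percentile, was 202 and 49.0 in E13 and 29.1 and 21.7 in adult. Without Alas2 the sums were 201 and 48.5 in E13 and 3.31 and 1.44 in adult. Of the 14, 8 were called higher in E13 and 1, Alas2, higher in adult, and all 14 were higher on E13 array 1 than on E13 array 2. The sum of 7 megakaryocyte markers was 46.5 and 24.6 in E13 and 0.269 and 0.282 in adult, with 7 of 7 called higher in E13, and that of 7 stellate and mesenchymal markers 29.9 and 24.1 against 8.51 and 7.39, again with 7 of 7. The sums of the haematopoietic progenitor and myeloid (0.726 to 1.91 in E13 and 2.88 to 3.55 in adult), macrophage, endothelial and bile duct lists were lower on both E13 arrays than on both adult arrays. Of the 9 haematopoietic progenitor and myeloid markers on the array, Kit, Cd34, Mpo, Prtn3 and Lyz2 were above background on both E13 arrays, and Kit and Mpo on neither adult array. Ptprc, Myb and Elane were at background on both E13 arrays.

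The gap between the E13 arrays was smaller in the mitosis genes than in these blood cell markers. Their summed signal on E13 array 1 was 1.07 times that on array 2, whereas for erythroid markers the ratio was 4.13 and for megakaryocyte markers 1.89. The median log2 difference between E13 arrays 1 and 2 was 0.09 over the mitosis genes and 1.94 over the erythroid markers. It was -0.02 over all genes tested. Of the mitosis genes 30 of 40 were higher on array 1, against 7763 of all 16422 genes, so they leaned to the array with more erythroid signal. The part of erythroid, megakaryocyte and other blood cells, and of stellate and mesenchymal cells, in the level that both E13 arrays share was not tested.

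**Figure D5:**
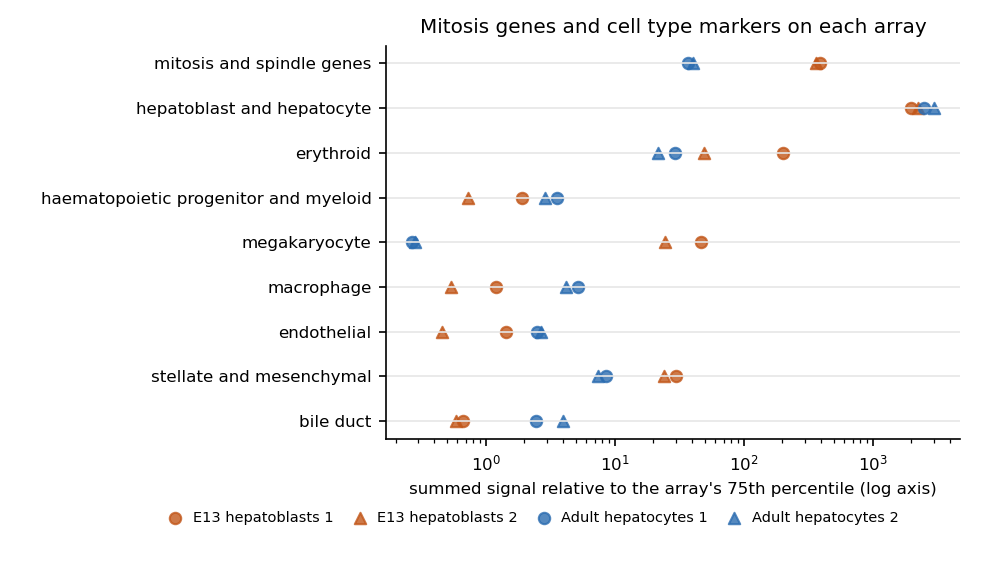
Summed signal, scaled to the 75th percentile of each array (log x axis), of the mitosis and spindle genes and of marker lists of liver and blood cell types on each of the 4 arrays; circles are replicate 1 and triangles replicate 2. The erythroid sum is 202 and 49.0 on the E13 arrays, while that of the mitosis and spindle genes is 394 and 368.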

How the data were processed

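The deposited intensity values were made with Agilent Feature Extraction 10.7.3.1, per the file headers, which subtracts background within each array. The authors' deposited log2 table followed the log2 of these values (r = 1 on every array). A correlation does not show which constant was subtracted. With the deposited table the median log2 difference over all genes was -0.0095, against -0.0097 with the 75th percentile subtracted here. Probe coordinates are those of the files (mm9).

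R 4.3.3 and limma 3.58.1 were used. Replicate spots were averaged as log2 signal, the 75th percentile was subtracted, and 1639 control spots and 18 probes flagged as outliers were left out. Tested probes were those marked well above background on both arrays of a group, and the brightest of them stood for the gene. Groups were compared by lmFit and eBayes, with 2 residual degrees of freedom, 2.55 prior ones and a median SE of 0.18, and called at Benjamini-Hochberg adjusted p under 0.05 over 16422 genes. The number of arrays limits the precision, and an exact permutation test of 2 against 2 arrays cannot go below p = 0.333. Scripts were tested on simulated data.

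The members and lists were chosen with earlier results of these data known. Every member could be named; from each other list, the rule gave the 3 called genes of largest fold in its commoner direction, the 1 in the other and the first 2 uncalled.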

Additional observations from a re-analysis of the deposited data

How the results depend on the processing

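Of the 40 mitosis and spindle genes, 35 kept their direction and their side of the threshold under every alternative run that included them. The run with genes detected on all arrays included only 14 of the 40. Their median log2 difference was -3.62 with normexp, -3.98 with normexp and quantile, -6.39 with quantile normalization, -7.33 with spike-in scaling, -5.51 with the mean of tested probes and -5.44 with the probe of the smallest fold. With genes detected on all arrays, which removes those at background in adult, it was -5.86. In that run 12 of 14 were called higher in E13, against 28.9% of all genes so detected. Leaving out 1 array at a time gave 35 to 39 calls higher in E13 and medians of -6.23 to -5.99. Over all genes, spike-in scaling gave 11292 calls higher in E13 and 2005 in adult, and no filter on dim probes gave 20102 calls, 14614 of them higher in adult. The share of calls that were higher in E13 was 50.5% in the main setting, 40.4% with normexp, 27.3% with no filter and 84.9% with spike-in scaling.

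Spike-in scaling moved every log2 difference by -1.24. Among the mitosis genes and the genes the naming rule picked, those called in either setting that turned sign under it were Pttg1 (-0.23), Cenpb (-0.43), Rhoa (-1.09), Wapal (-0.36), Anapc13 (-0.77), Ensa (-1.16), Arpp19 (-0.72) and Tfdp2 (-0.97). Genes of the lists that the rule did not pick turned too. Anapc13 also turned with quantile (-0.18) and with normexp and quantile (-0.19), and Arpp19 with the probe of the largest fold (-0.80), an alternative chosen after seeing the data. Leaving out 1 array at a time, Anln ranged from -4.78 to 0.74, turning without adult replicate 2, and Cdkn1a from -0.64, without adult replicate 1, to 1.95. The cause was not tested.

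The labels do not say whether the replicate numbers pair the samples. The deviations of same-numbered arrays correlated at -0.16 across genes. With 1 replicate difference per group, this value cannot decide whether they were paired. With the replicate number as a block 9535 genes were called, 4844 of them higher in E13, against 10647 without it, and 37 mitosis genes were called higher in E13 either way, with a median of -6.09. With the numbers crossed, chosen after seeing the data, 10768 genes were called. A slide or scan block could not be fitted, since there was 1 slide and 1 scan time. Adult levels of 22 genes are limited by signal over background.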
